A study of Triticum monococcum with 54 samples.

Results

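Einkorn grain fed nitrogen (N) without sulfur (S) was compared with grain fed both nutrients at 300 °Cd (degree days) after anthesis, the first sampling after feeding began. The comparison used 6 of the 54 libraries of the study. It covered the 18308 genes that the tables of both treatments hold, of 32047 in the longest table. The N+S- plants received a solution with 6 mM N and no S. The N+S+ plants received 6 mM N and 2 mM S. Both groups are whole grain of cultivated einkorn, Triticum monococcum ssp. monococcum, from 1 accession grown in a greenhouse in columns of perlite and sand. All plants had demineralized water alone up to anthesis, and the nutrient solutions were given between 200 and 700 °Cd. Other libraries are used below for reference. They come from N-S- grain (neither nutrient), from N-S+ grain (N at 0.5 mM, S at 2 mM), and from the N+S- and N+S+ grain of 400, 500 and 600 °Cd. Each group has 3 replicates that the labels call biological. The labels do not say how many plants or grains went into a replicate.

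Plants take up S mostly as sulfate and build it into cysteine, methionine and glutathione. In cereal grain the storage proteins differ in how much cysteine and methionine they hold, and the S supply during grain filling is known to shift the balance between S-rich and S-poor storage proteins. Genes of sulfate uptake and assimilation are known to be among those that respond to a shortage of S in plants. The deposited tables give an identifier, a length and counts for each gene and no gene name. None of the genes below is therefore assigned to these or other functions, and the tissue label was not checked against marker genes. Whole grain is a mixture of tissues, so fewer cells of a type and less RNA per cell cannot be told apart.

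The N+S- libraries held 1733001, 1580612 and 1701105 counts over the shared genes, and the N+S+ libraries held 2182143, 2203275 and 2073092. All 6 libraries were run on the same sequencing lane. The TMM scaling factors (trimmed mean of M-values), which assume that most genes do not change, were 1.10 to 1.19 for the N+S- libraries and 0.857 to 0.906 for the N+S+ libraries. Replicates of a group correlated at 0.959 to 0.966 (Pearson, log2 of the scaled counts, across genes, which are not independent replicates). With every library thinned to 1580612 counts, 9881, 10099 and 10286 genes had a count in the N+S- libraries and 9832, 9874 and 9934 genes in the N+S+ libraries. The ranges overlap, and the mean difference of 208.7 genes had a 2-sided exact permutation p of 0.2. N+S- replicate 3 stood apart from the other two N+S- libraries. Its counts differed from theirs by a chi-square per degree of freedom of 9.50 and 11.6, against 6.56 between replicates 1 and 2. Genes at least 2-fold higher at 300 than at 200 °Cd in N-S- grain had a median of 0.27 (log2, against the N+S+ mean) in that library, and of -0.05 and -0.03 in N+S- replicates 1 and 2. Genes that fell by at least 2-fold over the same step had a median of -0.20 in replicate 3 and of 0.06 and 0.07 in replicates 1 and 2.

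Of the 6860 genes with enough counts to be tested, 99 differed between N+S- and N+S+ grain at an adjusted p under 0.05 (edgeR quasi-likelihood test, Benjamini-Hochberg adjustment), which is 1.44%. Of these, 64 were higher in N+S- grain (0.933%) and 35 were lower (0.51%). The other 11448 genes were not tested, and 6305 of them had no count in any of the 6 libraries. The typical tested gene hardly moved: the median log2 fold change was 0.00 and the median size of change was 0.20. At an unadjusted p under 0.05 there were 770 genes. In all 99 called genes the replicates of N+S- and N+S+ did not overlap, against 1175 of all tested genes (17.1%). The split between higher and lower depends on the scaling. The authors' normalized values were scaled within the table of each treatment, not jointly. With the library sizes implied by those values in place of TMM, the median log2 fold change of all tested genes was 0.23 and 409 genes were higher against 28 lower. All 64 higher and 28 of the 35 lower genes were again called under that scaling. The count of 99 also depends on single libraries. It was 161 without N+S- replicate 3, 64 without N+S- replicate 2, and 48, 57 and 42 without N+S+ replicates 1, 2 and 3. The higher genes outnumbered the lower in these fits with 2 exceptions, 73 higher and 88 lower without N+S- replicate 3, and 22 higher and 35 lower without N+S+ replicate 2. Of the 99 genes that entered these fits, none changed sign.

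The rises were mostly modest. The 64 higher genes had a median log2 fold change of 0.84, with a range of 0.48 to 4.61, and 20 of them were at least 2-fold higher. Only 3 were at least 8-fold higher, and these 3 stood well apart from the other risers. The gene with the largest rise was TmLoc020895, a gene of 1051 bases. Its 3 N+S- libraries held 27.3, 27.8 and 65.4 CPM (counts relative to the library total, TMM-scaled over the shared genes), against 1.53, 2.13 and 1.08 CPM in the N+S+ libraries. All N+S- values lay far above all N+S+ values, and N+S- replicate 3 was the highest. The N+S+ level rests on 3, 4 and 2 counts. The log2 fold change was 4.61 ± 0.47 (SE; adjusted p = 1.30e-05, edgeR).

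TmLoc010460, with 1981 bases, showed a similar separation. It had 32.7, 45.8 and 62.2 CPM in N+S- grain, against 2.55, 1.60 and 3.25 CPM in N+S+ grain. Its log2 fold change was 4.21 ± 0.37 (adjusted p = 1.53e-06, edgeR). The third gene, with 1130 bases, was more abundant by counts. It had 340.6, 298.4 and 470.4 CPM in N+S- grain and 39.7, 18.1 and 25.5 CPM in N+S+ grain, so that the lowest N+S- library was still several times above the highest N+S+ library. Its log2 fold change of 3.73 ± 0.22 had an adjusted p of 5.35e-09 in edgeR. Below these 3 the rises were smaller. The next was a gene of 1434 bases at 8.60 CPM in N+S- grain and 1.25 CPM in N+S+ grain (6.64-fold), followed by a gene of 9344 bases that was 4.30-fold higher.

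The falls were fewer and, by their medians, larger. The 35 lower genes had a median log2 fold change of -1.25, and 25 of them fell by at least 2-fold. By mean over the 6 libraries, 22 of the 35 lay between 10 and 100 CPM, 5 between 100 and 1000 CPM and the others higher. The 5 largest falls were of 9.23 to 27.9-fold, in genes of 162 to 1734 bases that averaged 1.08 to 4.87 CPM in N+S- grain and 18.7 to 76.6 CPM in N+S+ grain. The largest fall was that of TmLoc026200, with 1734 bases. It had 0.488, 0.579 and 2.16 CPM in N+S- grain, against 41.2, 6.92 and 46.6 CPM in N+S+ grain. The N+S- values rest on 1, 1 and 4 counts, and N+S+ replicate 2 was much lower than the other two N+S+ libraries. The log2 fold change was -4.80 ± 0.69 (adjusted p = 0.000491, edgeR). With the spread shared over 24 libraries of 4 stages the adjusted p was 0.0733.

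TmLoc021586, with 1064 bases, had 1.46, 2.32 and 9.73 CPM in N+S- grain and 81.5, 36.7 and 111.7 CPM in N+S+ grain. Its log2 fold change was -4.08 ± 0.46 (adjusted p = 3.21e-05, edgeR). The order of the libraries is the same as for TmLoc026200. In all 5 of these genes replicate 1 was the lowest and replicate 3 the highest of the N+S- libraries, and replicate 2 was the lowest and replicate 3 the highest of the N+S+ libraries. The groups did not overlap in any of the 5. Neither gene was read often in N-S- grain at 300 °Cd, where TmLoc026200 had 0, 6 and 2 counts and TmLoc021586 had 1, 12 and 8.

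**Figure D1:**
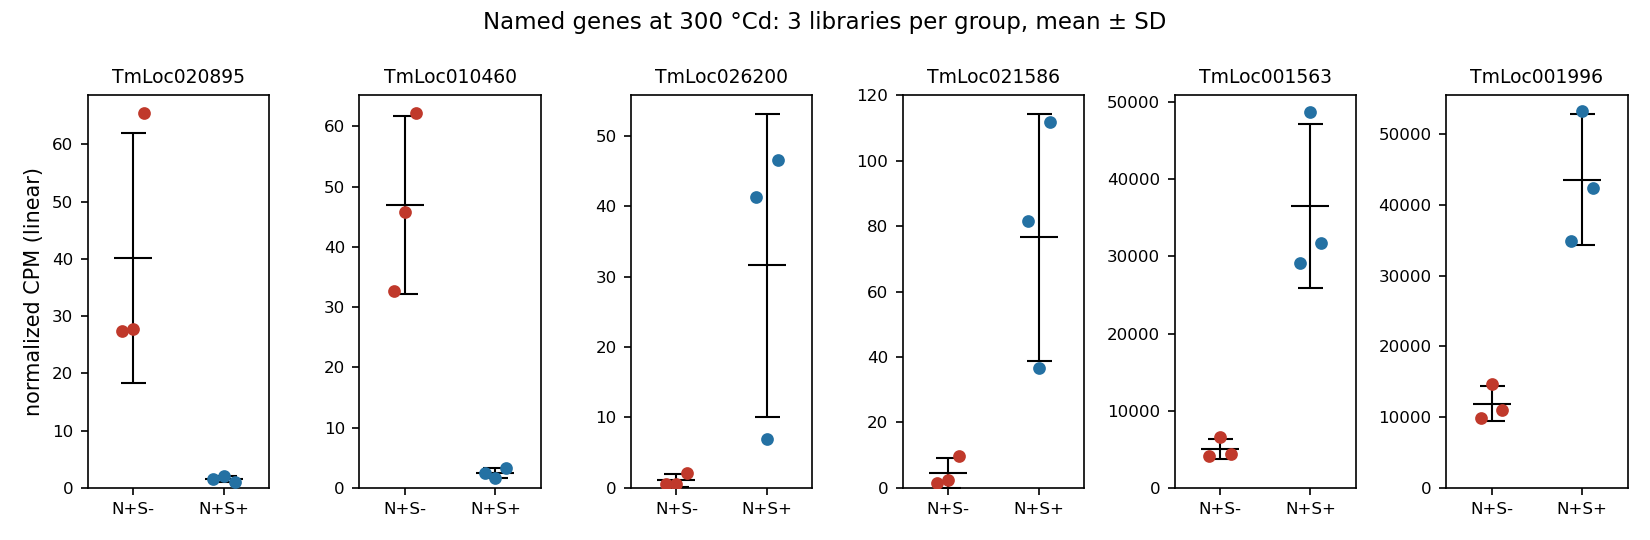
Normalized CPM (linear axes from 0, one scale per gene) of the 6 named genes in the 3 N+S- and the 3 N+S+ libraries of 300 °Cd. Points are libraries and bars are the mean ± SD. The groups do not overlap in any of the 6 genes, which was a condition of choice for those named for the largest changes. TmLoc026200 has 1 N+S+ library, at 6.92 CPM, far below the other two.

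Other falls lie at the top of the abundance range of the shared genes. Genes were ranked by their share of counts in N-S- grain at 300 °Cd, a group outside the comparison, with no correction for length. Only the shared genes could be ranked. At 300 °Cd they held 55.86 to 57.67% of all deposited counts of the N-S- libraries and 56.63 to 58.95% of those of the N+S+ libraries. Of the 20 most abundant genes by that rank, 7 were lower without S and 0 were higher, so 35% were called against 1.44% of all tested genes. Among the 100 most abundant, 8 were lower and 0 higher, but with the library sizes implied by the authors' normalized values 8 were lower and 8 higher. The 20 still had 7 lower and 0 higher with those sizes. The median log2 fold change of the 20 genes was -0.03, since the other 13 were not called. The 7 lower genes are short, at 380 to 903 bases, and were 2.08 to 7.20-fold lower.

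TmLoc001563, with 903 bases, had the largest fall of the 7. It had 4181, 6580 and 4449 CPM in N+S- grain, against 29129.7, 48646 and 31713 CPM in N+S+ grain. The lowest N+S+ library was several times above the highest N+S- library. The means were 5070.1 ± 1315 CPM in N+S- and 36496 ± 10601 CPM in N+S+ (SD, n = 3 each), and the log2 fold change was -2.85 ± 0.23 (adjusted p = 7.07e-07, edgeR). TmLoc001996, with 558 bases, had 9931, 14688 and 11021 CPM in N+S- grain and 34966, 53333 and 42389 CPM in N+S+ grain. It fell by 1.87 ± 0.21 on the log2 scale (adjusted p = 3.10e-05, edgeR). In both genes replicate 2 was the highest library of its group. That order held in all 7 genes among the N+S- libraries and in 6 of 7 among the N+S+ libraries.

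The remaining 5 of the 7 had smaller fold changes, at levels above and below those of these 2 genes. The gene at rank 2, with 552 bases, took 5.38% ± 1.39 of the counts in N+S- grain and 10.0% ± 0.37 in N+S+ grain (SD, n = 3 each), and its log2 fold change was -1.24 ± 0.22 (adjusted p = 0.00559, edgeR). The gene at rank 3, with 600 bases, took 3.82% ± 0.85 in N+S- and 8.44% ± 0.51 in N+S+ and fell by 1.49 on the log2 scale. Genes at ranks 5, 11 and 18, with 394, 380 and 432 bases, fell by 1.06, 1.72 and 1.11 on the log2 scale. The gene at rank 1, with 225 bases, was not called. Its share was 9.91, 10.7 and 14.0% in the N+S- libraries and 9.17, 8.93 and 9.52% in the N+S+ libraries. Its log2 fold change was -0.01 ± 0.22 (adjusted p = 0.994, edgeR).

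Together the 20 most abundant genes held 34.2, 39.8 and 39.6% of each N+S- library, against 49.3, 52.4 and 50.8% of each N+S+ library, as shares of the counts over shared genes. The groups did not overlap, and the difference was -13.0 percentage points. With 3 libraries a group the 2-sided exact permutation p was 0.1, the smallest this design can give. The 7 called genes alone took 12.9, 18.7 and 12.6% of the N+S- libraries and 30.4, 34.2 and 31.8% of the N+S+ libraries. The other 13 took 21.3, 21.1 and 27.0% of the N+S- libraries and 18.9, 18.2 and 19.0% of the N+S+ libraries. The 7 were picked by their calls in these same libraries, so the split does not test where the lower share lies. Shares of a total are tied to each other, and a lower share of these genes leaves a higher share for the rest. Over the shared genes, N-S- grain of the same stage gave the 20 genes 42.2% and the 7 genes 19.2%, both between the means of N+S- and N+S+ grain.

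**Figure D2:**
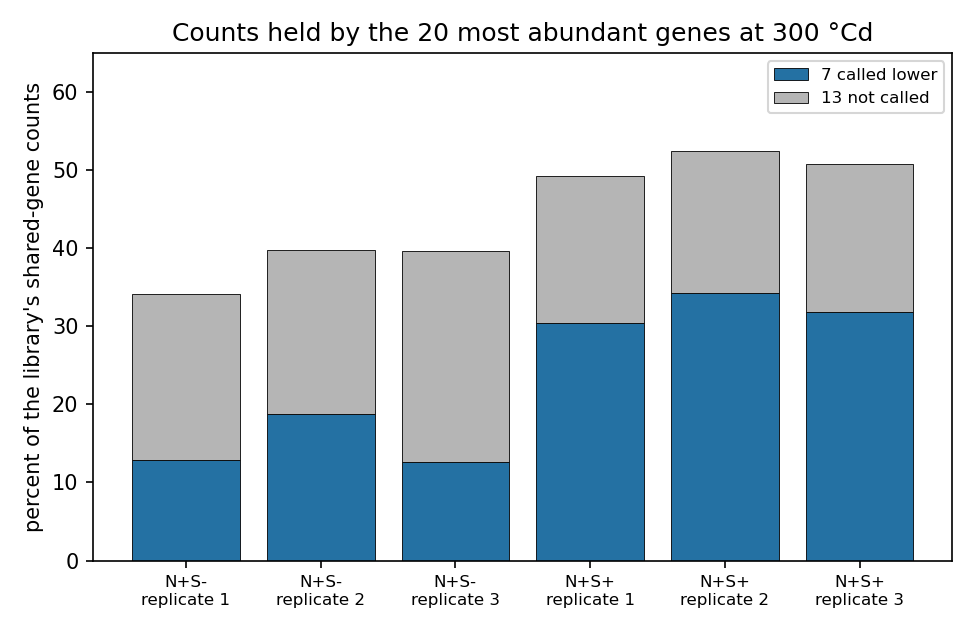
Percent of each library's shared-gene counts held by the 20 most abundant genes at 300 °Cd, in stacked bars from 0 for the 3 N+S- and the 3 N+S+ libraries. The 7 genes called lower take 12.6 to 18.7% of the N+S- bars and 30.4 to 34.2% of the N+S+ bars, while the other 13 take 21.1 to 27.0% of the N+S- bars and 18.2 to 19.0% of the N+S+ bars. The 7 were picked by their calls in these same libraries.

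By their medians the risers were longer than the falls. The median length was 3708 bases for the 64 higher genes and 702 bases for the 35 lower genes, and 1945 bases for all tested genes. Among the 3345 tested genes of 2000 bases or more, 49 were higher and 6 lower (1.64% called). Genes of at least 1000 and under 2000 bases had 11 higher and 7 lower of 1744 (1.03%). Genes of at least 500 and under 1000 bases had 2 higher and 12 lower of 1040 (1.35%), and genes under 500 bases had 2 higher and 10 lower of 731 (1.64%). The shares called are thus close to the 1.44% of all tested genes in each length class, and with TMM scaling the direction differs between them.

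Length also moved with the median change of all tested genes, called or not. The median log2 fold change was 0.04 for genes of 2000 bases or more and -0.07 for those under 500 bases. Each N+S- library, set against the N+S+ mean, showed it: the longest class had medians of 0.07, 0.06 and 0.04 and the shortest class of -0.05, -0.05 and -0.04. The same medians for each N+S+ library against the other two stayed between -0.01 and 0.02 in the longest class and between -0.02 and 0.02 in the shortest. Length boundaries of 6000 and 8000 bases were chosen after the values were seen. Of the 325 tested genes of at least 6000 bases, 22 were higher and 0 lower, and of the 96 of at least 8000 bases, 12 were higher and 0 lower. The longest riser had 15448 bases. It had 577.8, 732.9 and 728.8 CPM in N+S- grain, against 287.7, 295.6 and 256.5 CPM in N+S+ grain, a rise of 1.28 ± 0.13 on the log2 scale (adjusted p = 8.39e-06, edgeR).

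With a smooth length trend removed from every library, a step added after the data were seen, 73 genes were called. Of these 41 were higher and 32 lower, and they included 40 of the 64 risers and 31 of the 35 falls. Of the genes of 2000 bases or more, 25 were then higher and 7 lower. With the library sizes implied by the authors' normalized values, the median of every length class was above 0, at 0.16 for the shortest and 0.27 for the longest. The short classes then turned to mostly higher, with 20 higher and 9 lower under 500 bases and 15 higher and 9 lower from there to under 1000 bases. The longest class had 314 higher and 3 lower. With TMM scaling the medians ran the other way at 400 and 600 °Cd. They were -0.04 for the longest and 0.05 for the shortest class at 400 °Cd and -0.03 and 0.06 at 600 °Cd, with 0.00 and -0.01 at 500 °Cd. In the low N libraries of 300 °Cd the medians ran the same way as in N+S- against N+S+ grain of that stage. N-S- against N-S+ grain had medians of 0.04 for the longest and -0.14 for the shortest class. What the relation to length comes from was not tested.

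**Figure D3:**
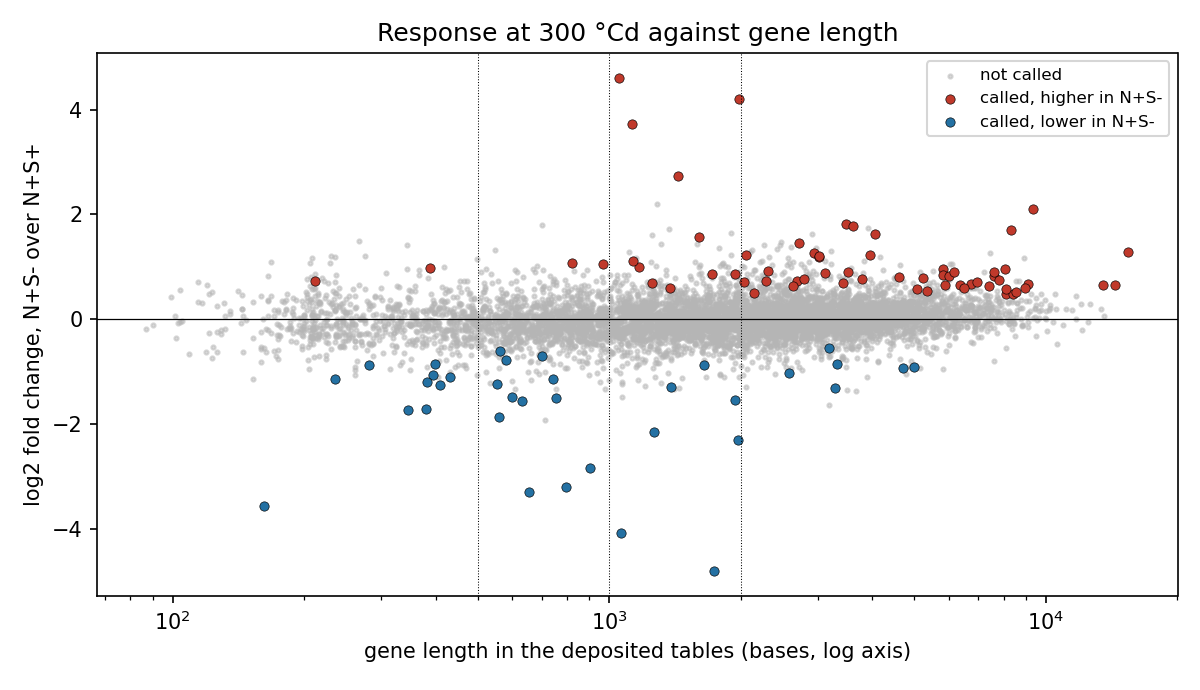
Log2 fold change of N+S- over N+S+ grain at 300 °Cd for the 6860 tested genes against gene length in bases (log axis). Called genes are coloured by direction, and dotted lines mark 500, 1000 and 2000 bases. The 22 called genes of at least 6000 bases all lie above 0, and the called genes under 1000 bases lie mostly below it.

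Genes that were higher at 300 than at 200 °Cd in N-S- grain held many of the calls in both directions. In N-S- grain 38.9% of 7357 genes differed between the stages (edgeR, adjusted p under 0.05). Of the 638 tested genes that were at least 2-fold higher at 300 °Cd there, 27 rose and 14 fell in N+S- grain (6.43% called, against 1.44% of all tested genes). Of the 496 tested genes that were at least 2-fold lower at 300 °Cd, 1 was higher and 1 lower (0.403%). Seen from the other side, 50 of the 64 risers were higher at 300 than at 200 °Cd in N-S- grain and 1 was lower, against 19.5% and 19.4% of all genes in that fit. Of the 29 falls in that fit, 16 were higher at 300 °Cd and 2 lower. The median log2 step was 0.92 for the risers, 1.01 for the falls and -0.02 for all genes. N+S- replicate 3 had the highest median of the genes that rise over this step. Without it the balance of that list turned, to 21 higher and 38 lower with a median of -0.07, against 0.05 with it. Without N+S+ replicate 2 the list had 12 higher and 12 lower. Over all genes, the calls without N+S- replicate 3 included 52 of the 64 risers and 31 of the 35 falls.

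The 99 genes were then read in the N+S- and N+S+ grain of the later stages, whose libraries took no part in the choice. At 400 °Cd, where both groups shared a lane, 105 of all tested genes were called (1.85%), 41 higher (0.724%) and 64 lower (1.13%). Of the 32 falls tested at 400 °Cd, 22 were again called lower and 28 had the same sign, with a median log2 fold change of -1.80. Of the 62 risers tested there, 11 were again called higher and 31 had the same sign, with a median of -0.03. Among all genes tested at 400 °Cd 49.2% were above 0, so the risers as a whole were split there as all genes were. Without N+S+ replicate 3 the count at 400 °Cd was 54.

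At 500 °Cd the N+S- and N+S+ libraries were on different lanes, so that S supply and lane cannot be told apart there. Of all tested genes 97 were called (1.65%). Of the falls 16 of 34 were called lower again (0.749% of all tested genes), with a median of -1.12, and of the risers 11 of 63 were called higher again (0.902%), with a median of 0.15. At 600 °Cd, on 1 lane, 48 genes were called (0.774%), and 14 of 34 falls were called lower (0.339% of all tested genes), with a median of -0.57. Of the risers 9 of 63 were called higher (0.436%), with a median of 0.01. No gene was called in the opposite direction at any of the 3 later stages.

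A small set of genes was thus called throughout. At all 3 later stages 9 of the 64 risers and 13 of the 35 falls were called in the same direction, and 52 risers and 12 falls were called at none. The 9 lasting risers had a median length of 1601 bases and a median log2 fold change of 1.81 at 300 °Cd. The 52 risers called at none had a median length of 5147 bases and a median log2 fold change of 0.78. For the falls, the 13 lasting genes had a median length of 432 bases and the 12 called at none of 1030 bases. Their median log2 fold changes at 300 °Cd were close, at -1.25 and -1.06. The number of genes tested and called differs between the stages, as given above. Depth differs too. At 400 °Cd the N+S- libraries held 839848 to 925632 counts over the shared genes, against 1580612 to 1733001 at 300 °Cd. The N+S+ libraries held 1227291 to 1288265, against 2073092 to 2203275. Modest changes are harder to call with fewer counts.

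The 3 largest risers were all called again. TmLoc010460 had log2 fold changes of 4.45 ± 0.41, 4.04 ± 0.32 and 4.57 ± 0.42 at 400, 500 and 600 °Cd. TmLoc020895 had 107, 95 and 124 counts in N+S- grain at 400 °Cd, against 1, 0 and 0 counts in N+S+ grain, and its log2 fold changes at 500 and 600 °Cd were 4.99 ± 0.41 and 4.95 ± 0.31. The riser of 1130 bases had log2 fold changes of 3.97, 3.88 and 4.23. Of the large falls at low level, neither named gene was called after 400 °Cd. TmLoc026200 had -3.39 ± 0.56 at 400 °Cd (adjusted p = 0.000557, edgeR), then 0.83 ± 0.58 at 500 °Cd and 0.24 ± 0.55 at 600 °Cd. By 600 °Cd it stood at 660.5, 90.6 and 446.4 CPM in N+S- grain and 222.6, 166.1 and 624.5 CPM in N+S+ grain, so the groups overlapped at a much higher level than at 300 °Cd. TmLoc021586 had -3.30 ± 0.65 at 400 °Cd (adjusted p = 0.00397, edgeR), then -1.01 ± 0.44 and 1.22 ± 0.50.

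**Figure D4:**
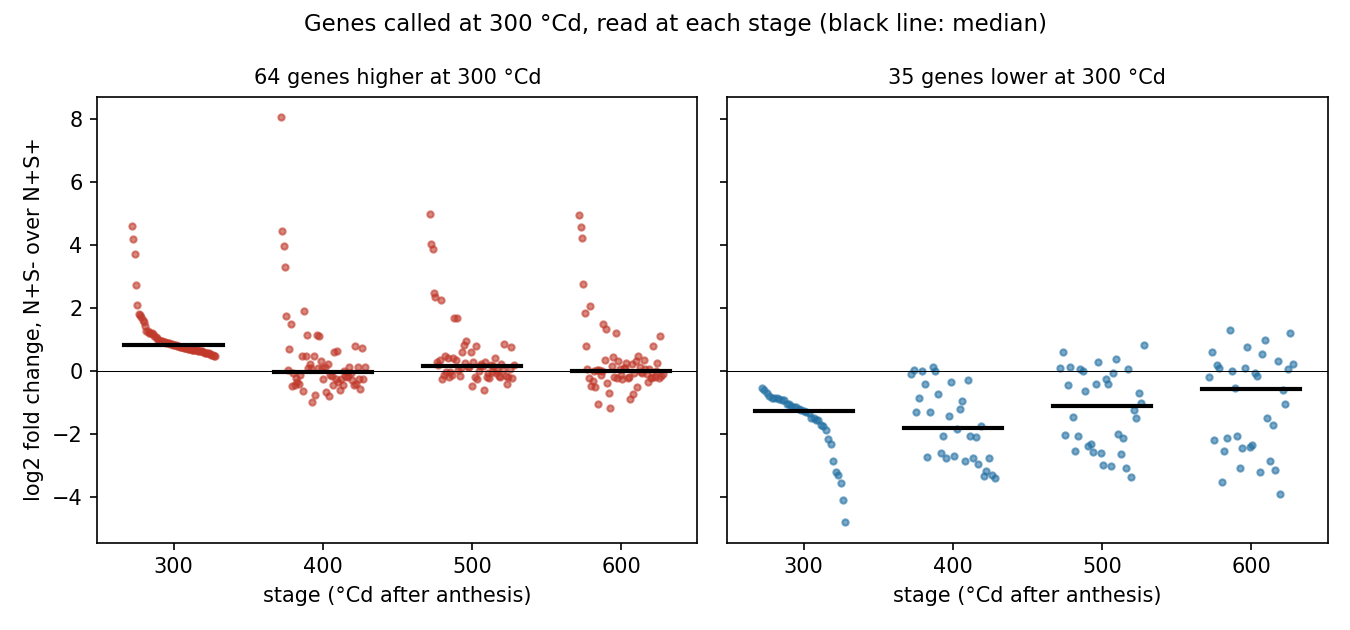
Log2 fold change of N+S- over N+S+ grain at 300, 400, 500 and 600 °Cd for the genes called higher (64) and lower (35) at 300 °Cd. Points are genes tested at that stage, and the black bar is their median. The median of the risers is 0.84 at 300 °Cd and between -0.03 and 0.15 later, and that of the falls is -1.25, then -1.80, -1.12 and -0.57. The value of TmLoc020895 at 400 °Cd rests on 1 count in the N+S+ libraries.

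The difference between stages was tested directly, as the response at 300 °Cd minus the mean response at 400 and 600 °Cd, over 18 libraries. It was called for 14 of 7569 genes (0.185%; 641 at an unadjusted p under 0.05, edgeR), 12 positive (0.159%) and 2 negative (0.0264%). Of these 14, 5 were falls from among the 20 most abundant genes, all of which fell less at 300 °Cd. Their log2 fold changes ran between -1.87 and -1.06 at 300 °Cd, between -2.95 and -2.05 at 400 °Cd, between -3.09 and -2.33 at 500 °Cd and between -3.20 and -2.07 at 600 °Cd. TmLoc001996 was one of them. Its log2 fold change was -1.87 at 300 °Cd and -2.95, -3.09 and -3.15 later, and the difference was 1.16 ± 0.25 (adjusted p = 0.0364, edgeR). TmLoc001563 was not called, with a difference of 0.75 ± 0.29 (adjusted p = 0.439, edgeR) and log2 fold changes of -2.85 at 300 °Cd and -3.33, -3.38 and -3.90 later.

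Another 7 of the 14 were risers of 2304 to 15448 bases. Their log2 fold changes lay between 0.53 and 1.28 at 300 °Cd and between -0.79 and 0.11 at 400 °Cd. None of the 7 was called at 400, 500 or 600 °Cd. The longest riser was among them, at 1.28 at 300 °Cd and -0.08, -0.12 and -0.30 later. The length trend, which ran the other way at 400 and 600 °Cd, was not removed in this test. With it removed at 300 °Cd the longest riser had 1.01. The risers of 8094 and 8550 bases then had 0.42 and 0.35 and were not called, while the rest of the 7 were still called. The other two of the 14 had a negative difference. A gene of 4980 bases had log2 fold changes of -0.91 at 300 °Cd and 0.14, 0.05 and 1.31 later. A gene of 2331 bases was not called at 300 °Cd, at 0.28, and had 1.11, 1.77 and 2.01 later. The stages 300, 400 and 600 °Cd were on 3 lanes, and both treatments of a stage shared a lane, so a lane effect common to both treatments drops out of each response. The count of 14 was 6 without N+S+ replicate 1, 5 without N+S+ replicate 3 and 9 without N+S- replicate 2. Each of these libraries was left out at 300 °Cd only.

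**Figure D5:**
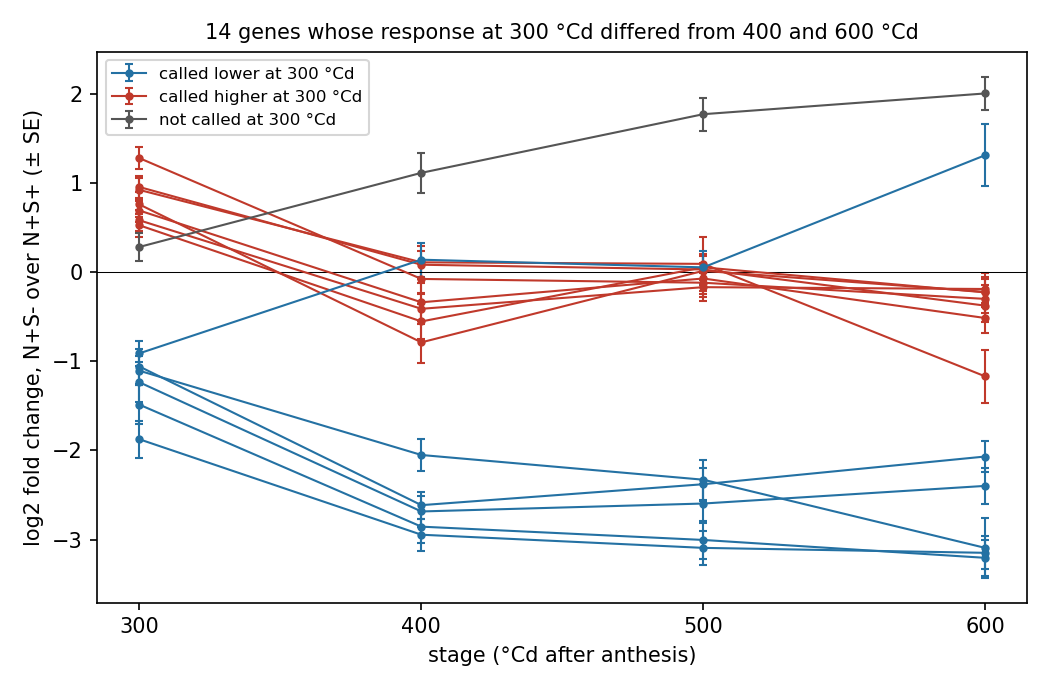
Log2 fold change of N+S- over N+S+ grain (± SE) by stage for the 14 genes whose response at 300 °Cd differed from the mean of 400 and 600 °Cd. The 5 abundant falls are at -1.87 to -1.06 at 300 °Cd and at or below -2.05 at 400 °Cd. The 7 risers are at 0.53 to 1.28 at 300 °Cd and at or below 0.11 at 400 °Cd.

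S supply was also varied at low N at 300 °Cd, in other libraries of the same lane. Here N-S- grain was set against N-S+ grain, which also had 0.5 mM N where N-S- grain had none. The N-S+ table as used here holds 8649 complete rows, and 3029 genes were tested. Of these, 54 were called (1.78%), 34 higher (1.12%) and 20 lower (0.66%) in N-S- grain. The 32 risers tested were all above 0, against 48.5% of all genes, with a median log2 fold change of 0.76, and 16 were called higher. Of the 11 falls tested, 10 were below 0 and 4 were called lower, with a median of -0.41. In this comparison genes at least 2-fold higher at 300 than at 200 °Cd in N-S- grain had a median of 0.19. Those at least 2-fold lower had -0.37. The N-S- libraries of 300 °Cd also took part in the choice of these lists. The risers lean to long genes and to genes higher at 300 °Cd, and neither trend was removed here. The count of 54 was 13 without N-S+ replicate 2, 92 without N-S+ replicate 3, and 18 and 19 without N-S- replicates 1 and 2.

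TmLoc010460 had 49.4, 63.8 and 85.2 CPM in N-S- grain and 1.95, 7.54 and 5.24 CPM in N-S+ grain, scaled over the genes of those tables. Its log2 fold change of 3.74 ± 0.42 had an adjusted p of 0.000112 in edgeR. Both named abundant genes were also lower at low N: TmLoc001563 had -1.21 ± 0.18 (adjusted p = 0.000787, edgeR) and TmLoc001996 had -1.01 ± 0.14 (adjusted p = 0.000496, edgeR). The response at high N minus that at low N was tested over the 12 libraries, a test added after the data were seen. It was called for 1 of 3242 genes (0.0308%; 159 at an unadjusted p under 0.05), and that gene was TmLoc001563, with a difference of -1.66 ± 0.30 (adjusted p = 0.0277, edgeR). The difference was -0.88 ± 0.24 for TmLoc001996 (adjusted p = 0.332) and 0.45 ± 0.67 for TmLoc010460 (adjusted p = 0.988).

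N-S- grain at 300 °Cd can also be set against the same N+S+ libraries. The values stand side by side only, since both comparisons share their controls. In a fit of 9 libraries the 64 risers had a median log2 fold change of 0.72 for N-S- and 0.83 for N+S- grain, each against N+S+. The 35 falls had medians of -1.01 for N-S- and -1.25 for N+S-. TmLoc020895 had 3.78 for N-S- and 4.61 for N+S- grain, and TmLoc010460 had 3.68 and 4.21. TmLoc026200 had -4.45 for N-S- and -4.81 for N+S- grain, and TmLoc021586 had -4.38 and -4.09. Of the abundant genes, TmLoc001563 had -1.35 for N-S- and -2.85 for N+S- grain, and TmLoc001996 had -1.15 and -1.88.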

How the data were processed

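Per the labels' protocols, polyadenylated RNA of whole grain was sequenced strand-specifically, with paired reads of 125 bases. Per the file headers, the authors deposited a raw count and a normalized signal for each gene and library, with a gene length and a covered length. The deposited raw counts were used for all tests, and the normalized signal, scaled by the authors within each table, only for 1 alternative scaling. CASAVA 1.8.4, BWA 0.7.12-r1039 and edgeR are named in the submitters' processing notes, and the reference sequence is not given in the sources used here.

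Counts of the 18308 genes in both tables were filtered with filterByExpr, TMM-scaled and tested with edgeR 4.0.16 in R 4.3.3 over the 6 libraries, with Benjamini-Hochberg adjustment and calls at an adjusted p under 0.05. DESeq2 1.42.0 was an alternative. SE is the log2 fold change over the square root of F. The steps were checked on simulated counts, with known changes in random genes and in either direction. The simulation held no length trend, no library that stood apart and no joint fall of the most abundant genes, so it does not bear on these. The genes named are the 2 largest changes in each direction (mean of at least 1 CPM, groups not overlapping) and the 2 falls of lowest adjusted p among the 20 most abundant. The genes and lists were chosen with earlier results of these data known.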

Additional observations from a re-analysis of the deposited data

Results flagged for a closer look

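The response to lack of S at 300 °Cd differed from the mean response at 400 and 600 °Cd, by a test of the difference itself, in 14 genes (edgeR, adjusted p under 0.05). TmLoc001996 was among them, with a difference of 1.16 on the log2 scale, its fall being smaller at 300 °Cd. TmLoc001563 differed between high and low N at 300 °Cd, with a log2 response at high N minus that at low N of -1.66 (interaction test, edgeR).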

How the results depend on the processing

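The count of 99 genes at 300 °Cd was 41 with the spread shared over 24 libraries, 42 over the genes of all 4 tables, 172 with no filter, 437 with the implied library sizes, and 42 to 161 with 1 library left out. It was 102 with DESeq2, 98 with its size factors, 92 after thinning and 110 with 9 libraries. Over the genes of all 4 tables only 44 of the 99 entered the fit, and 30 risers and 12 falls were called again. Of the 99 genes, those that entered the fit kept their sign in all 16 alternatives. The 7 calls among the 20 most abundant genes were 4 over the genes of all 4 tables, which hold only 14 of the 20. They were 5 to 8 with 1 library left out. The lower share of the 20 genes was -13.9 to -11.1 percentage points with 1 library left out. The count was 54 to 109 at 400 °Cd, 65 to 142 at 500 °Cd and 32 to 60 at 600 °Cd with 1 replicate left out, and 104 at 600 °Cd with the shared spread. For the difference between stages the count was 27 with 500 °Cd added and 5 to 19 with 1 library of 300 °Cd left out. At low N it was 13 to 92. The causes were not tested. Replicate numbers were not taken as pairs in the main fits. Same-numbered deviations correlated at -0.03, 0.02 and 0.11 at 300 °Cd, and not every library correlated best with its own number. With so few replicates these values cannot settle whether the numbers pair the samples. With the replicate block the counts were 105 at 300 °Cd, 77 at 400 °Cd, 47 at 500 °Cd, 86 at 600 °Cd, 77 at low N and 17 for the difference between stages. Genes with few counts in a group, such as TmLoc026200, have the least certain size of change.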
